A study of Mus musculus with 6 samples.

Results

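Integrins are receptors of the cell surface, each built from an α and a β subunit, that bind extracellular matrix outside the cell and the cytoskeleton inside it. Schwann cells, the glia that myelinate peripheral axons, use them to hold on to the laminins of their basal lamina. In the nerve α6β1 is known from early Schwann cells that sort axons, whereas α6β4, α7β1 and dystroglycan are known as laminin receptors of Schwann cells that myelinate. The integrin genes described here were the 10 subunits *Itga1*, *Itga2*, *Itga5*, *Itga6*, *Itga7*, *Itgav*, *Itgb1*, *Itgb3*, *Itgb4* and *Itgb8*, taken by symbol from the 24015 genes of the count tables. All 10 had enough reads to be among the 11371 genes tested.

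RNA-Seq had been carried out on sciatic nerves of mice at postnatal day 14. Control mice carried floxed Rnf40 alleles (Rnf40 fl/fl) without Cre, and Rnf40ΔSC mice carried the same alleles together with a Dhh::Cre transgene (Dhh::Cre, Rnf40 fl/fl), so that no group had Cre without floxed alleles. Each genotype was represented by 3 libraries, and each library by a pool of 3 nerves. The question asked of the 10 genes was which of them differ between nerves whose Schwann cells have or lack Rnf40, a subunit of the E3 ligase that ubiquitinates histone H2B. Dhh::Cre acts in the Schwann cell lineage, while the RNA came from the whole nerve, with its fibroblasts, perineurial, vascular and immune cells. The sample labels give a mixed 129SvJ/C57Bl/6J background for all 6 libraries, and the methods of the study name C3H in place of 129SvJ.

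Depth, as reads assigned to a gene, was 1317167, 1992622 and 2468765 in control libraries 1, 2 and 3 and to 2184268, 1459387 and 2186710 in Rnf40ΔSC libraries 1, 2 and 3. The deleted gene *Rnf40* had 127, 123 and 138 normalised counts (counts brought to a common library size by TMM scaling) in control and 87.7, 87.9 and 91.5 in Rnf40ΔSC libraries. Its 3 Rnf40ΔSC values lay below its 3 control values, and the log2 fold change was -0.54 (SE, for standard error, 0.14, adjusted p = 0.00242, quasi-likelihood test of edgeR with Benjamini-Hochberg adjustment), but the adjusted p was 0.12 when libraries were scaled by their total counts (range over all alternatives 0.00235 to 0.12). Total-count scaling moved the median log2 fold change of all genes tested to 0.27, from a value near 0 with TMM, so that the log2 fold changes below are relative to the typical gene.

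Among the 10 integrin genes, *Itgb4* fell and *Itga6* rose in Rnf40ΔSC nerves, while the other 8 did not pass the test. With an adjusted p of at most 0.05 as the limit, 1 of the 10 was lower, against 16.2% of all genes tested, and 1 was higher, against 15.4%. Requiring in addition a log2 fold change of at least 0.8 in size and a mean of at least 20 normalised counts, *Itgb4* remained as 1 gene called lower (4.99% of all genes tested) and 0 were called higher (3.65% of all genes tested). The count of 0 was also 0 at an unadjusted p with edgeR and with DESeq2 in either of its forms. The median log2 fold change of the 10 was -0.17.

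**Figure D1:**
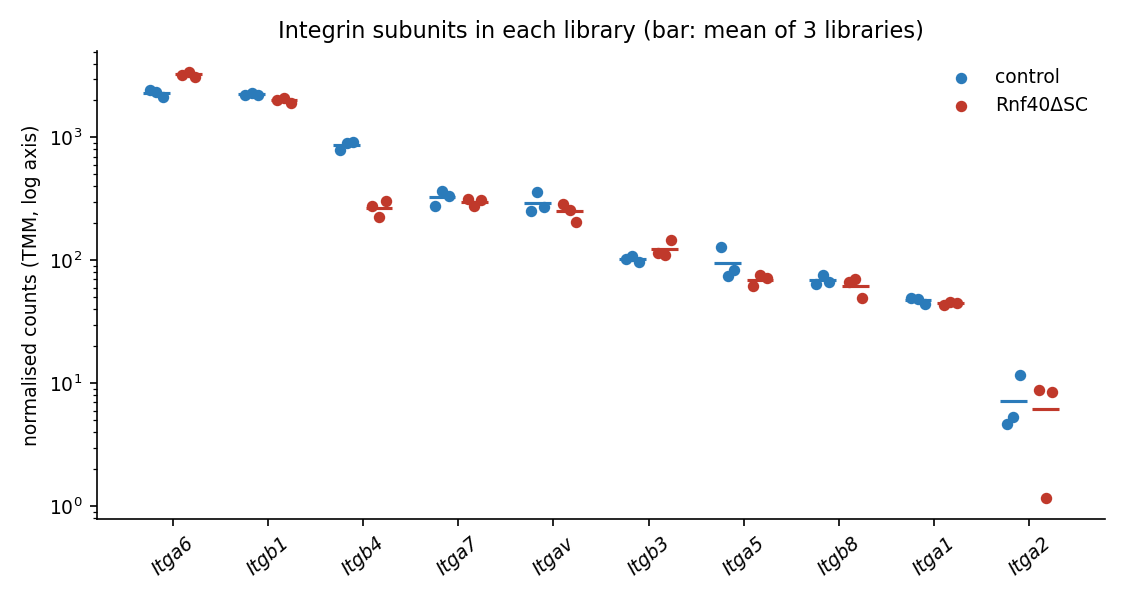
Normalised counts of the 10 integrin subunits on a log axis, with a point for each of 3 control (blue) and 3 Rnf40ΔSC libraries (red) and a bar at the mean of each genotype. *Itgb4* shows the widest gap, from a control mean of 872 to an Rnf40ΔSC mean of 269, *Itga6* lies higher in every Rnf40ΔSC library, and *Itga2* scatters at a few counts per library.

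*Itgb4* encodes β4, which pairs with α6 alone and is linked to intermediate filaments by plectin, which binds its long cytoplasmic domain. The gene (ENSMUSG00000020758.9) lies on chromosome 11, from 115836023 to 115869726 on the plus strand of mm9. It had 790.2, 900.2 and 925 normalised counts in control libraries 1, 2 and 3 and 278, 227 and 302 in Rnf40ΔSC libraries 1, 2 and 3. The lowest control library thus stood well above the highest Rnf40ΔSC library. The mean went from 872 ± 71.9 to 269 ± 38.1 (SD, n = 3 each), 3.23-fold lower, with a log2 fold change of -1.69 (SE 0.10, adjusted p = 4.77e-16, quasi-likelihood test of edgeR, Benjamini-Hochberg). An antisense lincRNA, B230344G16Rik, shares 537 exonic bases with *Itgb4*, and as the strand setting of the counting is not given in the sources used here, its reads cannot be told apart from those of *Itgb4*.

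*Itga6*, the partner of β4 and also of β1, moved the other way. This gene (ENSMUSG00000027111.8, chromosome 2, 71583673 to 71696473 on the plus strand) had 2423, 2367 and 2155 normalised counts in control and 3251, 3409 and 3132 in Rnf40ΔSC libraries. All 3 Rnf40ΔSC values lay above all 3 control values, and the 2 groups were separated by several times their spread. From 2315 ± 141 to 3264 ± 139 (SD, n = 3 each), the rise was 1.41-fold, or 0.50 on the log2 scale (SE 0.08, adjusted p = 4.36e-06, quasi-likelihood test of edgeR, Benjamini-Hochberg), which is below the limit of 0.8. Scaled by total counts it was 0.76, and *Itgb4* was then at -1.42, so that the directions of this pair held under every scaling tried.

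*Itgb1* encodes β1, the common partner of α1, α2, α5, α6, α7 and αv among the subunits described here. On chromosome 8 (ENSMUSG00000025809.8, 131209554 to 131257100, plus strand), it had 2224, 2290 and 2226 normalised counts in control and 2023, 2077 and 1907 in Rnf40ΔSC libraries. Every Rnf40ΔSC library was below every control library, yet by little. With means of 2247 ± 37.3 and 2002.5 ± 86.8 (SD, n = 3 each) the log2 fold change was -0.17 (SE 0.08), which did not pass the test (adjusted p = 0.105, quasi-likelihood test of edgeR, Benjamini-Hochberg) and was 0.10 under total-count scaling (adjusted p range over all alternatives 0.104 to 0.297).

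The cytoplasmic tails of β1 and β4 differ. In β1 the NPxY motif (Asn, Pro, any residue, Tyr) is the docking site of talin and kindlin, which link the receptor to actin. The ends of the coding sequences below are from GENCODE vM1 transcripts of mm9, 5′ to 3′ in the sense of the gene and without the stop codon. Each stretch of a β subunit holds the last 150 coding bases, and capitals mark codons for NPxY. *Itgb1* (2394 coding bases) has 2 such motifs in this stretch, and *Itgb4*, with the much longer coding sequence of 5454 bases, has 0 in it or in the rest of its coding sequence. This is not particular to *Itgb4*, as *Itgb8* also has 0 in its whole coding sequence. *Itgb3* has 1 in its last 150 coding bases.
Itgb1: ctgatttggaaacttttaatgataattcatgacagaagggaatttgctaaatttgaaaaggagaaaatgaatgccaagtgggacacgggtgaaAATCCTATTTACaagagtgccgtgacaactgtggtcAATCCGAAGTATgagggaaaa
Itgb4: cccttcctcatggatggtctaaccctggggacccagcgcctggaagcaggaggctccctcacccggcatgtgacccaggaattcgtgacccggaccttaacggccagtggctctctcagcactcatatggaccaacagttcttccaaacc

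*Itga6* is known to be spliced into the forms α6A and α6B, whose tails differ after the conserved segment next to the membrane. Its tails are shown because the reads were counted per gene, so that the rise of *Itga6* cannot be assigned to either form. Capitals mark the 15 bases that code for this segment, which begins 102 coding bases before the end in α6A and 156 in α6B.
Itga6 (α6A): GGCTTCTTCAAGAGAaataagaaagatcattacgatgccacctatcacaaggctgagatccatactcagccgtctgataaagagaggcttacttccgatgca
Itga6 (α6B): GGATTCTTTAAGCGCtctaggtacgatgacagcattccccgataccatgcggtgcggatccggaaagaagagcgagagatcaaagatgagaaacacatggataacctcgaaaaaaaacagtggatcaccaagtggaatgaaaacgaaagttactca

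Promoters from 250 bases before to 50 bases after the start were available from a RefSeq extract (GRCm38.p6) for 6 of the 10 genes. The extract had no entry for *Itga6*, *Itga7*, *Itgb3* and *Itgb4*. The EGR motif, searched as GCGTGGGCG or GCGGGGGCG on both strands, was in 0 of the 6 and in 1139 of all 32851 promoters (3.47%).

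Ratios of counts within a library do not depend on how libraries are scaled against each other. *Itgb4* had 0.326, 0.380 and 0.429 counts for each count of *Itga6* in control libraries and 0.0856, 0.0667 and 0.0963 in Rnf40ΔSC libraries. The lowest control ratio was thus more than 3 times the highest Rnf40ΔSC ratio, and the difference on the log2 scale was -2.20 (SE 0.19). Against *Itgb1*, *Itgb4* went from 0.388 ± 0.0305 to 0.135 ± 0.0245 counts per count (SD, n = 3 each), a log2 difference of -1.53. The ratio of *Itga6* to *Itgb1* was 1.09, 1.03 and 0.968 in control and 1.61, 1.64 and 1.64 in Rnf40ΔSC libraries, a log2 difference of 0.66 with hardly any spread in the latter. In each of these 3 ratios the genotypes did not overlap, which gives a two-sided exact permutation p of 0.1, the smallest that 3 against 3 libraries allow (0.267 after Benjamini-Hochberg adjustment over the 8 ratios tested). Libraries of the genotypes overlapped in the other 5 ratios, *Itga7*, *Itga1*, *Itgav* and *Dag1* to *Itgb1* and *Itgb8* to *Itgav*, with log2 differences between -0.07 and 0.08 (exact permutation p between 0.4 and 0.7).

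**Figure D2:**
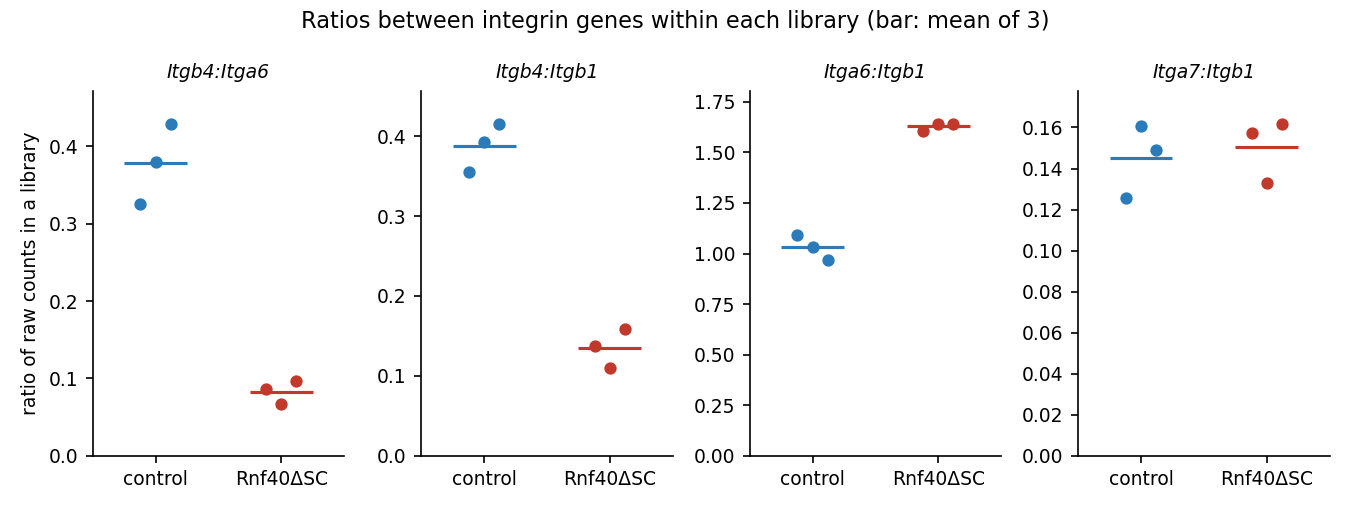
Ratios of raw counts between integrin genes in each of 3 control (blue) and 3 Rnf40ΔSC libraries (red), with a bar at the mean and each axis starting at 0. The ratios of *Itgb4* to *Itga6* and to *Itgb1* are lower in all Rnf40ΔSC libraries, that of *Itga6* to *Itgb1* is higher, and that of *Itga7* to *Itgb1* overlaps between genotypes.

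Since the RNA is that of whole nerve, fewer cells of a type and less RNA per cell cannot be told apart from these counts alone. *Sox10*, which encodes a transcription factor of the Schwann cell lineage, was itself lower in Rnf40ΔSC nerves, by 0.79 on the log2 scale (adjusted p = 8.80e-09, quasi-likelihood test of edgeR, Benjamini-Hochberg), and the integrin genes were therefore also set against it, a choice made after the values had been seen. Per count of *Sox10*, *Itgb4* had 0.849, 0.878 and 0.878 counts in control and 0.455, 0.408 and 0.524 in Rnf40ΔSC libraries, a log2 difference of -0.92. *Itga6* went from 2.32 ± 0.279 to 5.62 ± 0.429 counts per count of *Sox10* (SD, n = 3 each), a log2 difference of 1.28, and *Itgb1* from 2.25 ± 0.138 to 3.45 ± 0.239, a log2 difference of 0.62. None of these 3 ratios overlapped between genotypes.

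β4 is also made by perineurial cells, which wrap the fascicles of the nerve, and in control libraries *Itgb4* was the most abundant of their 6 markers (*Cldn1*, *Slc2a1*, *Krt23*, *Itgb4*, *Moxd1* and *Lypd2*), all of which were detected. The list without *Itgb4*, formed after the values had been seen, summed to 436, 515 and 487 TMM-scaled CPM in control and 422, 348 and 361 in Rnf40ΔSC libraries. Most of it came from *Cldn1*, the gene of claudin 1 of tight junctions, and control library 1 lay close to Rnf40ΔSC library 1. This sum hides opposite changes, as *Cldn1* (-0.28) and *Slc2a1* (-0.66) passed the test as lower and *Krt23* as higher. *Krt23* had 0 or 1 reads in control and 9 to 16 in Rnf40ΔSC libraries, *Moxd1* did not pass and *Lypd2* was not tested. The part of perineurial cells in the fall of *Itgb4* was not tested. Keratinocytes also express *Itgb4*, *Itga6* and *Itga3*, and their part in these values was not tested. Their markers *Krt5*, *Krt14*, *Krt10* and *Dsp* summed to between 6.78 and 12.9 CPM in the 6 libraries, mostly from *Krt10*, and *Krt5* and *Krt14* had at most 2 reads in any of them.

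Among the 10 subunits, the remaining partners of β1 that bind laminin or collagen are α7, α1 and α2. *Itga7*, which encodes the laminin-binding α7 of muscle and Schwann cells (chromosome 10, 128370869 to 128395333), had 279, 368 and 332 normalised counts in control and 318, 276 and 309 in Rnf40ΔSC libraries. The genotypes overlapped, as control library 1 lay within the range of the Rnf40ΔSC libraries and control libraries 2 and 3 above it. The log2 fold change was -0.12 (SE 0.10, adjusted p = 0.412, quasi-likelihood test of edgeR, Benjamini-Hochberg) or 0.15 under total-count scaling. *Itga1* (chromosome 13, 115748287 to 115892172), a receptor for collagen IV and laminin, lay between 44.3 and 49.4 normalised counts in control and between 43.5 and 45.7 in Rnf40ΔSC libraries, a log2 fold change of -0.08, or 0.19 under total-count scaling. *Itga2*, a collagen receptor on the same chromosome (115626124 to 115722249), was covered by 3, 5 and 14 reads in control and by 11, 1 and 11 in Rnf40ΔSC libraries. A difference in *Itga2* was not detectable at this depth, and its log2 estimate of -0.21 (SE 0.52) became positive without control replicate 3 (0.40), without Rnf40ΔSC replicate 2 (0.17) and under total-count scaling (0.05).

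Skeletal muscle, which expresses *Itga7* and *Itgb1*, differed between libraries of a genotype. Its 12 markers were all detected and summed to 4725, 3574 and 2658 CPM in control and to 95.7, 250.0 and 3332 CPM in Rnf40ΔSC libraries, with *Myh4*, the gene of a myosin heavy chain of fast fibres, most abundant over the 6 libraries together. Rnf40ΔSC library 3 was thus near the control libraries and Rnf40ΔSC libraries 1 and 2 far below them. The part of muscle in the values of *Itga7* and *Itgb1* was not tested. With single libraries left out the log2 fold change of *Itga7* ranged from -0.21 to -0.03, and it was -0.13 without Rnf40ΔSC library 3. That of *Itgb1* was then -0.12. *Itga6* and *Itgb4* had log2 fold changes of 0.54 and -1.77 without it.

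Receptors for fibronectin, vitronectin and latent TGFβ form the rest of the 10. *Itga5* (chromosome 15, 103174720 to 103197194), whose α5 pairs with β1 as the classical fibronectin receptor, had 130, 75.2 and 82.8 normalised counts in control and 62.0, 76.1 and 71.4 in Rnf40ΔSC libraries. Control library 1 stood above the other 5, which overlapped. The log2 fold change of -0.43 (SE 0.18) did not pass the test (adjusted p = 0.0646, quasi-likelihood test of edgeR, Benjamini-Hochberg), but did so without control replicate 2 (-0.57, adjusted p = 0.0338, range over all alternatives 0.0338 to 0.521), and it was -0.19 without control replicate 1. *Itgav* (chromosome 2, 83564554 to 83647073), the αv partner of β1, β3, β5 and β8, had a log2 fold change of -0.25 (SE 0.14), or 0.02 under total-count scaling, with overlapping libraries from 252 to 361 normalised counts in control and from 206 to 286 in Rnf40ΔSC nerves. With single libraries left out, *Itgav* ranged from -0.35 to -0.08 on the log2 scale. It shares 634 exonic bases with the antisense lincRNA Gm13684.

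*Itgb3* (chromosome 11, 104469370 to 104531790), the vitronectin receptor subunit that also forms the fibrinogen receptor of platelets, had 102, 109 and 97.1 normalised counts in control and 114, 110 and 147 in Rnf40ΔSC libraries. The genotypes did not overlap, by a margin of about a single count, and Rnf40ΔSC library 3 stood highest. Its log2 fold change of 0.28 (SE 0.14) did not pass the test (adjusted p = 0.132, quasi-likelihood test of edgeR, Benjamini-Hochberg), was 0.14 without Rnf40ΔSC replicate 3 and passed under total-count scaling (0.55, adjusted p = 0.0024, range over all alternatives 0.0024 to 0.502). Of 5 platelet markers, *Ppbp* and *Treml1* had 0 reads in all libraries, and the sum ran from 36.7 to 53.5 CPM in control and from 31.9 to 54.5 CPM in Rnf40ΔSC libraries, nearly all of it *Pf4*. *Itgb8* (chromosome 12, 120396495 to 120477275), which with αv activates latent TGFβ, lay between 64.8 and 76.3 normalised counts in control and between 49.6 and 70.3 in Rnf40ΔSC libraries, a log2 fold change of -0.17 (SE 0.18), or 0.10 under total-count scaling. With single libraries left out its log2 fold change ranged from -0.25 to -0.02, the latter without Rnf40ΔSC replicate 3.

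**Figure D3:**
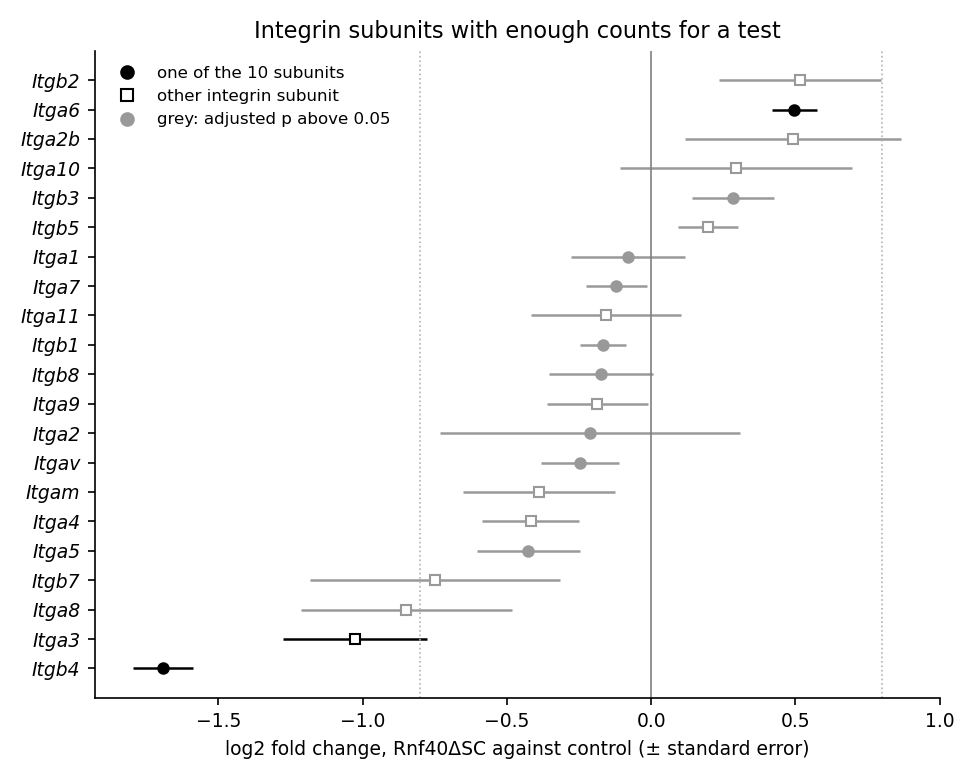
Log2 fold change of Rnf40ΔSC against control nerves, with its standard error, for the 21 integrin subunits tested (3 libraries each). Filled circles are the 10 subunits, open squares 11 others, grey symbols have an adjusted p above 0.05, and dotted lines mark 0.8 in either direction. *Itgb4* at -1.69, *Itga3* at -1.03 and, in grey, *Itga8* at -0.85 lie beyond the lower line, *Itga6* at 0.50 is the gene that passed the test upwards, and under total-count scaling every symbol would move up by about 0.27.

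Levels of different genes were compared per kilobase of exon. In control nerves *Itgb1* stood highest at 551 ± 9.15 normalised counts per kb (SD, n = 3), followed by *Itga6* at 257 ± 15.7, *Itgb4* at 124 ± 10.2 and *Itga7* at 76.6 ± 10.4. Below them came *Itgav* (27.5), *Itga5* (21.9), *Itgb3* (17.6), *Itgb8* (6.27), *Itga1* (5.93) and *Itga2* (1.71). Libraries of *Itgav* and *Itga5*, of *Itga5* and *Itgb3* and of *Itgb8* and *Itga1* overlapped, so that the order within these pairs is not beyond the spread. In Rnf40ΔSC nerves *Itgb1* was at 491 ± 21.3 normalised counts per kb and *Itga6* at 362 ± 15.4, and *Itga7* (70.7 ± 5.11) had passed *Itgb4* (38.4 ± 5.43). *Itgb3* at 21.2 stood above *Itga5* at 15.9 there, while libraries of *Itgav* and *Itgb3* and of *Itgb8* and *Itga1* overlapped.

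The length assigned to *Itga6* matters for this order, since its exons together span 9025 bases and its longest transcript 4310. With the longest transcript as length *Itga6* ranked first and *Itgb1* second in Rnf40ΔSC nerves, while in control nerves *Itgb1* still ranked first. A share was also computed for each subunit of the summed level per kb of its family, 18 α and 9 β genes. *Itgb4* held 14.8%, 15.9% and 16.9% of the β level in control and 6.04%, 4.92% and 6.75% in Rnf40ΔSC libraries, with no overlap. A share also moves when another subunit of the family changes, so these values do not stand for changes of the gene itself. The TMM-scaled level of *Itgb1* per kb was lower in Rnf40ΔSC nerves, but *Itgb1* did not pass the test and was at 0.10 on the log2 scale under total-count scaling. Counts of *Itga7* overlapped between genotypes. By share, *Itgb1* was nevertheless higher and *Itga7* lower. The share of *Itgb1* was 70.4% ± 0.945 in control and 75.4% ± 2.00 in Rnf40ΔSC nerves (SD, n = 3 each), and that of *Itgb5* 9.18% ± 0.628 and 12.7% ± 0.286. Among α subunits *Itga6* went from 59.2% ± 1.87 to 70.3% ± 1.57 and *Itga7* from 17.7% ± 2.37 to 13.7% ± 1.18 (SD, n = 3 each). With the longest transcript as length the shares of *Itga6* were 72.7% and 81.3%.

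**Figure D4:**
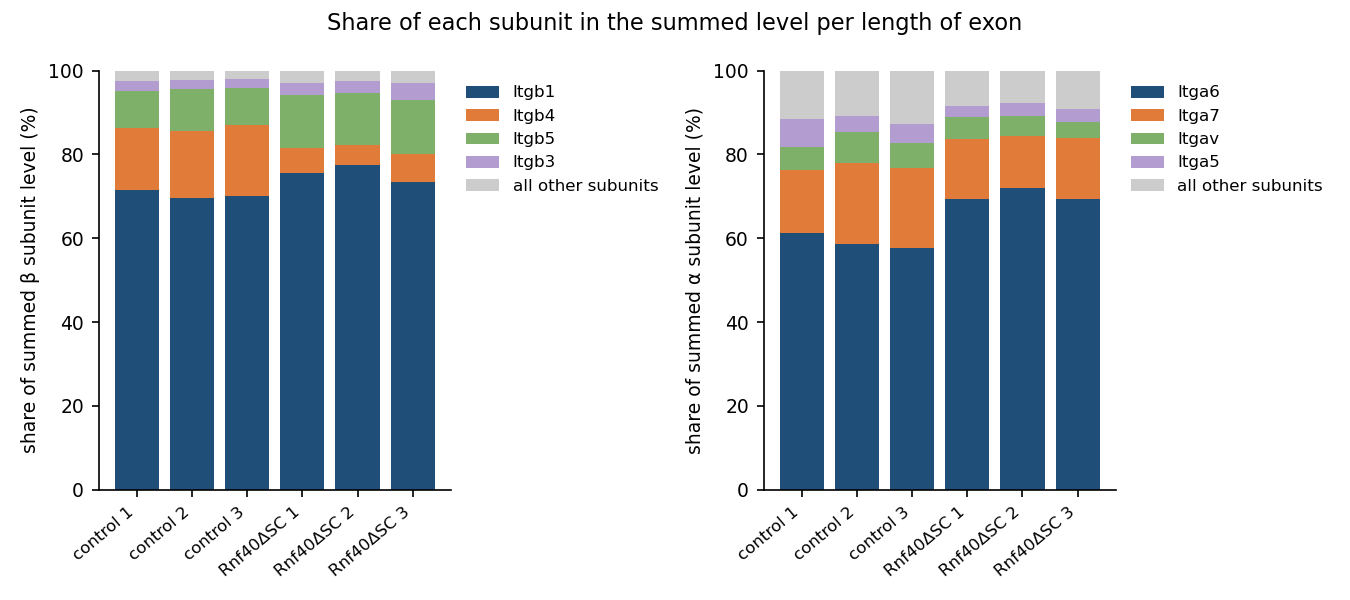
Share (%) of each integrin subunit in the summed normalised level per kb of exon of all β (left) and all α subunits (right), with a stacked bar for each library. The share of *Itgb4* is smaller in the 3 Rnf40ΔSC libraries (4.92% to 6.75%) than in the 3 control libraries (14.8% to 16.9%), and that of *Itga6* is larger.

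Of the 17 integrin subunits outside the 10, 11 had enough reads for a test. 1 of these 11 changed and was lower (against 16.2% of all genes tested), *Itga3*, which encodes the laminin-binding α3. It had 41.7, 43.4 and 39.3 normalised counts in control and 24.1, 15.2 and 20.2 in Rnf40ΔSC libraries, without overlap. The log2 fold change was -1.03 (SE 0.25, adjusted p = 0.00142, quasi-likelihood test of edgeR, Benjamini-Hochberg), or -0.76 under total-count scaling, which is short of 0.8. Of the 11, 0 were higher, at an adjusted or unadjusted p of at most 0.05 and with DESeq2 in either form, against 15.4% of all genes tested, whereas total-count scaling gave 2, *Itgb2* and *Itgb5*, with 3766 of all 11371 genes higher. Without a filter on low counts *Itgae*, which is not among the 11, was higher. *Itgb5*, an αv partner, had 228, 268 and 228 normalised counts in control and 279, 274 and 278 in Rnf40ΔSC libraries, a log2 fold change of 0.20 (adjusted p = 0.150 by edgeR) that passed under total-count scaling (0.47, adjusted p = 0.000442, range over all alternatives 0.000442 to 0.403). *Itga4*, whose α4 binds fibronectin and VCAM1, was at -0.42 (adjusted p = 0.0548 by edgeR), and *Itga8*, whose α8 binds nephronectin, at -0.85 on 8 to 22 reads per library (adjusted p = 0.0733 by edgeR), which passed without Rnf40ΔSC replicate 3 (-1.21, adjusted p = 0.0264, range over all alternatives 0.0264 to 0.316). Without Rnf40ΔSC replicate 1 *Itga8* was at -0.55. *Itga4* shares 1124 exonic bases with the antisense gene *Cerkl* and *Itga8* 369 with E030013I19Rik.

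Log2 fold changes of the remaining subunits tested were -0.19 for *Itga9*, 0.29 for *Itga10*, -0.16 for *Itga11*, 0.49 for *Itga2b*, -0.39 for *Itgam*, 0.52 for *Itgb2* and -0.75 for *Itgb7*, with adjusted p-values between 0.163 and 0.687 by edgeR. *Itgam* and *Itgb2* encode the subunits of the complement receptor of macrophages. Markers of macrophages, 9 genes of which all were detected and *Csf1r* was the most abundant over the 6 libraries together, summed to 461, 425 and 464 CPM in control and 311, 309 and 312 CPM in Rnf40ΔSC libraries. *Itgae*, the αE of T cells that reside in epithelia, was covered by 1, 1 and 3 reads in control and by 12, 5 and 9 in Rnf40ΔSC libraries. These were too few to pass the filter, and *Itgae* was tested, and changed, only when no filter was applied. *Itgal* had 2 to 10 reads per library, *Itgad*, *Itgax* and *Itgb6* at most 3, and *Itgb2l* had 0 in all 6.

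Vascular and connective tissue cells express *Itga1*, *Itga5*, *Itgav* and *Itga8* as well. All 7 endothelial markers were detected, with *Cdh5* most abundant, and summed to 707, 637 and 722 CPM in control and 450.4, 460.0 and 544 CPM in Rnf40ΔSC libraries. The 7 markers of pericytes and smooth muscle, with *Pdgfrb* most abundant over the 6 libraries together, summed to 1134, 843 and 928 CPM in control and 585, 574 and 773 CPM in Rnf40ΔSC libraries. For the 6 fibroblast markers, led by *Col3a1*, the sums were 39851, 39041 and 42230.2 CPM in control and 30991, 29855 and 29314 CPM in Rnf40ΔSC libraries. The part of these cells in the values of the 4 integrin genes, or of *Itga6*, *Itgb1* and the other subunits, was not tested. Adipocyte markers, 6 genes led by *Fabp4*, overlapped between genotypes, from 768 to 1313 CPM in control and from 604 to 858 CPM in Rnf40ΔSC libraries. Immature and Remak Schwann cells, in which α6β1 is known, were represented by 6 markers, of which 2 were higher (1 of them on at most 5 reads per control library) and 3 lower, against 15.4% and 16.2% of all genes tested. Their sum therefore hides opposite changes, and it was 703, 754 and 783 CPM in control and 614, 675 and 613 CPM in Rnf40ΔSC libraries.

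Laminins are ligands of several of these receptors. Of 10 laminin chains tested, 2 rose and 3 fell, against 15.4% and 16.2% of all genes tested, with a median log2 fold change of -0.10 against a value near 0 for all genes. *Lama1*, whose α1 chain is bound by α6β1 and α7β1, was covered by 2, 0 and 3 reads in control and by 102, 61 and 121 in Rnf40ΔSC libraries. *Lamc3*, which encodes γ3, rose by 0.94 on the log2 scale (adjusted p = 0.00774, quasi-likelihood test of edgeR, Benjamini-Hochberg), and its adjusted p was 0.0506 without control replicate 3 (range over all alternatives 0.000612 to 0.0506). The 3 that fell, named after their values had been seen, were *Lama4* (-0.42), *Lamb1* (-0.48) and *Lamb2* (-0.48), of which *Lama4* and *Lamb2* did not pass under total-count scaling. *Lama2* and *Lamc1*, chains of the main laminin of the Schwann cell basal lamina, were at -0.10 and -0.11 (adjusted p = 0.428 and 0.296 by edgeR) and were positive under total-count scaling (0.17 and 0.16).

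All 23 other matrix ligands were tested, and 17 fell and 1 rose (16.2% and 15.4% of all genes tested), with a median log2 fold change of -0.45. Under total-count scaling 9 fell and 2 rose, against 880 and 3766 of all 11371 genes. Of these ligands 2 are also among the 6 fibroblast markers, whose sum was lower in all Rnf40ΔSC libraries, and the part of fibroblasts in the fall of the ligands was not tested. *Tnc*, which encodes tenascin C, rose from 109 ± 10.2 to 317 ± 31.6 normalised counts (SD, n = 3 each), which is a log2 difference of 1.55 (adjusted p = 2.11e-13, quasi-likelihood test of edgeR, Benjamini-Hochberg). *Spp1*, the gene of osteopontin, and *Vtn*, the gene of vitronectin, both ligands of αv integrins, fell by 0.94 and 0.91 on the log2 scale, and by 0.67 and 0.63 under total-count scaling, which is short of 0.8.

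Dystroglycan and its partners bind the same laminins without an integrin. Of 9 other laminin receptors and partners tested, 6 fell and 1 rose (16.2% and 15.4% of all genes tested), with a median log2 fold change of -0.30, and 3 fell and 2 rose under total-count scaling (880 and 3766 of all 11371 genes). *Dag1*, the gene of dystroglycan itself, was at -0.23 (adjusted p = 0.0152, quasi-likelihood test of edgeR, Benjamini-Hochberg), and this call was lost without control replicate 2 or 3 or without Rnf40ΔSC replicate 1 or 2 (adjusted p from 0.0653 to 0.107), while total-count scaling gave 0.04 (adjusted p = 0.675, range over all alternatives 0.00308 to 0.675). The cytoplasmic partners *Drp2* and *Prx*, which encode dystrophin-related protein 2 and periaxin of myelinating Schwann cells, fell by 2.18 and 1.59 on the log2 scale, the latter close to the -1.69 of *Itgb4*. The gene that rose, *Dmd* (0.46), was named after its values had been seen and encodes dystrophin.

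The 8 partners of β4 and of tetraspanin complexes that were tested had 3 genes higher and 3 lower (15.4% and 16.2% of all genes tested), with a median log2 fold change of 0.08, and 5 higher and 2 lower under total-count scaling (3766 and 880 of all 11371 genes). *Cd9*, a tetraspanin that associates with β1 and α6 integrins, fell by 0.72 on the log2 scale (adjusted p = 4.66e-09, quasi-likelihood test of edgeR, Benjamini-Hochberg). The others that changed were named after their values had been seen. They were *Cd151* (-0.64), a tetraspanin bound to α3, α6 and α7 integrins, and *Plec* (-0.47), the gene of plectin, on the lower side, and *Dst* (0.50), *Bsg* (0.45) and *Cd63* (0.44) on the higher side. *Plec* did not pass under total-count scaling (adjusted p = 0.0973, range over all alternatives 1.18e-07 to 0.0973). *Cd63* did not pass with DESeq2 (adjusted p = 0.0543, or 0.054 when fold changes were shrunk by its prior), without control replicate 3 or without Rnf40ΔSC replicate 2 (0.121 and 0.112, range over all alternatives 9.86e-05 to 0.121).

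Inside the cell, 35 adaptors and kinases of integrin adhesions were tested. Of these 7 were higher and 10 lower, where all genes tested gave 15.4% and 16.2%, with a median log2 fold change of -0.14, and total-count scaling turned this to 15 higher and 5 lower, where 3766 and 880 of all 11371 genes were higher and lower. *Fyn*, which encodes a kinase of the Src family, rose from 641 ± 6.87 to 1387 ± 195 normalised counts (SD, n = 3 each), which is a log2 difference of 1.11 (adjusted p = 5.17e-12, quasi-likelihood test of edgeR, Benjamini-Hochberg), and the docking protein gene *Nedd9* rose by 0.96 on that scale. *Lims2*, the gene of the ILK partner PINCH2, and *Tgfb1i1*, the gene of the paxillin relative Hic-5, fell by 0.87 and 0.82 on the log2 scale, and by 0.60 and 0.55 under total-count scaling. *Tln1*, the gene of talin 1, which activates integrins through the β tail, fell by 0.49 and did not pass under total-count scaling (adjusted p = 0.0639 by edgeR, range over all alternatives 4.11e-06 to 0.0639). *Fermt2*, the gene of kindlin 2, which binds the same tail, rose by 0.26 on the log2 scale (adjusted p = 0.0221 by edgeR), a call lost without control replicate 1 or 3 (0.0678 and 0.0993, range over all alternatives 1.21e-05 to 0.0993). *Ilk*, the gene of integrin-linked kinase, was at -0.12, or 0.15 under total-count scaling, and *Ptk2*, the gene of focal adhesion kinase, at 0.02 (adjusted p = 0.398 and 0.908 by edgeR), the latter just below 0 without control replicate 1 or Rnf40ΔSC replicate 2 and passing under total-count scaling (0.29, adjusted p = 0.0491, range over all alternatives 0.0491 to 0.994).

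**Figure D5:**
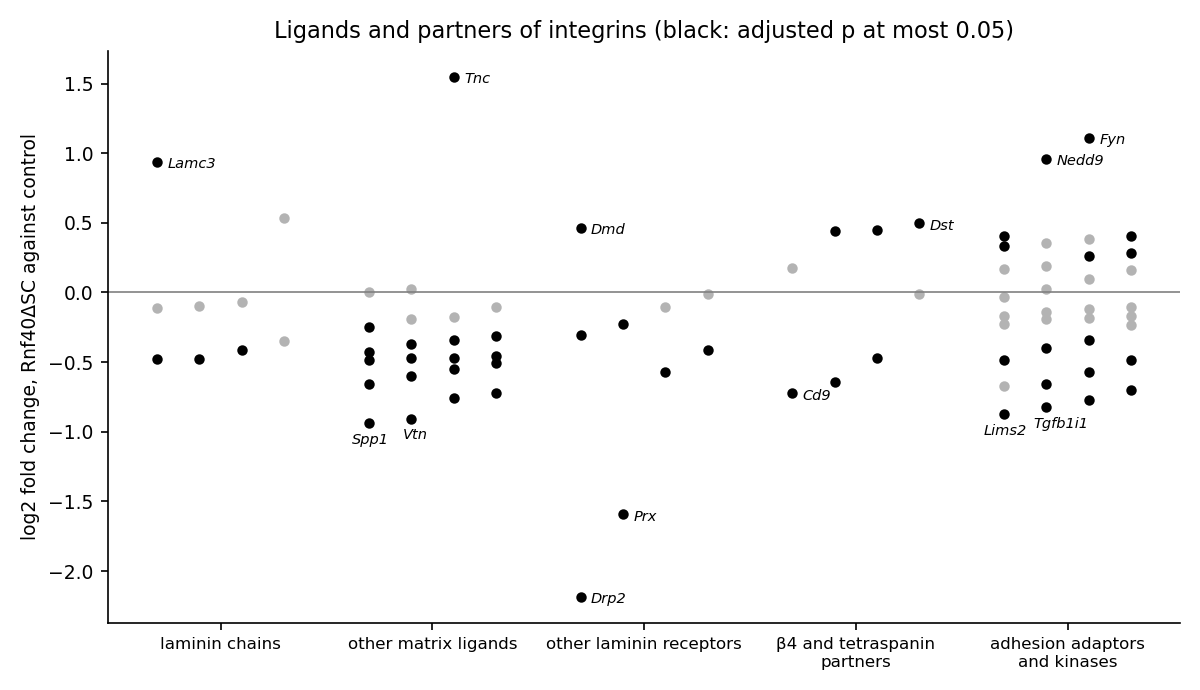
Log2 fold change of Rnf40ΔSC against control nerves (3 libraries each) for each tested gene of 5 lists of ligands and partners of integrins, with black points for an adjusted p of at most 0.05 and grey points above it. *Lama1*, nearly without reads in control libraries, is left out. Most black points among the matrix ligands lie below 0 (17 of 18), *Drp2* at -2.18 and *Prx* at -1.59 lie lowest, and *Tnc* at 1.55 lies highest, while total-count scaling would move every point up by about 0.27.

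Across the 6 libraries, the profiles most similar to *Itgb4* among 9251 other genes were those of *Kif19a*, *Cadm4* and *Sept3*, with root mean square differences of centred log2 CPM of 0.0859, 0.104 and 0.107. Their log2 fold changes were -1.81, -1.72 and -1.80. Nearest to *Itga6* were *Mettl16*, *Vdac1* and *Nufip1*, with differences of 0.024, 0.0349 and 0.0363 and log2 fold changes of 0.54, 0.51 and 0.53. As these genes were picked by closeness in the same libraries, fold changes near those of *Itgb4* and *Itga6* follow from the selection.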

How the data were processed

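The authors made RNA-Seq libraries from total RNA, aligned the reads to mm9 with TopHat and deposited raw counts of uniquely mapped reads per gene from HTSeq, without normalization. The submitters' processing notes also list Bowtie2 2.1.0 and mm10. The methods name a directional kit and the labels NEB Next Ultra. The gene annotation and strand setting of the counting are not given in the sources used here, so overlapping and antisense genes are uncertain.

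Counts were tested with edgeR 4.0.16 in R 4.3.3 (filterByExpr, TMM, robust quasi-likelihood fit, genotype as the only term, Benjamini-Hochberg adjustment over 11371 genes), after a check on simulated data. Normalised counts are scaled to the geometric mean of the library sizes. Ratios used log2 with 0.5 added to each count and an exact permutation test. Coordinates and exon lengths are from GENCODE vM1 on mm9. Libraries of the same genotype varied beyond Poisson sampling (chi-square per degree of freedom 1.78 to 5.21). A single read stood for 0.405 to 0.759 CPM before TMM scaling, so genes with a few reads gave no usable estimate. All marker sums are in TMM-scaled CPM.

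Members and lists were chosen with earlier results of these data known. Named were the 10 subunits, *Rnf40*, other integrins, called genes of each further list, 8 preset genes and the 3 most similar profiles. Alternatives were RLE and total-count scaling, DESeq2 1.42.0 with and without prior, no filter, at least 10 counts in every library, a replicate block, each library left out, a pseudocount of 1 and the longest transcript as length.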

Additional observations from a re-analysis of the deposited data

How the results depend on the processing

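*Itgb4* and *Itga6* kept their direction and their side of the adjusted p limit under all 13 alternatives, with log2 fold changes from -1.77 to -1.42 and from 0.45 to 0.76. Total-count scaling changed most: of all genes tested, 3766 were higher and 880 lower in place of 1756 and 1841, and of the 10 subunits 2 were higher, *Itgb3* in addition to *Itga6*. It also reversed *Itga1* (0.19), *Itga2* (0.0531), *Itga7* (0.15), *Itgav* (0.0228), *Itgb1* (0.10), *Itgb8* (0.10), *Lama2* (0.17), *Lamc1* (0.16), *Ilk* (0.15) and *Dag1* (0.0414). When single libraries were left out, the number of subunits that were lower ranged from 1 to 2, with *Itga5* as the second without control replicate 2. Fold changes then ranged from -0.48 to 0.40 for *Itga2* and from -0.00448 to 0.0536 for *Ptk2*, and log2 differences of ratios from -0.0432 to 0.14 for *Itga7* to *Itgb1*, from -0.17 to 0.0733 for *Itgav* to *Itgb1* and from -0.0207 to 0.13 for *Itgb8* to *Itgav*; the cause was not tested. A pseudocount of 1 reversed 0 of the 8 ratios. By level per kb in Rnf40ΔSC nerves, 6 of the 10 subunits kept their place with the longest transcript as length, and 6 to 10 without single libraries. Libraries with the same replicate number did not deviate together (Pearson r -0.09, -0.02 and -0.06 over 11371 genes, not the highest of each library). With so few libraries this cannot exclude a shared litter or day, which the replicate number is not said to mark. With the replicate block *Itgb4* had a log2 fold change of -1.70 and *Itga6* of 0.50, the subunits changed stayed at 1 higher and 1 lower, 1727 and 1837 of all genes tested were higher and lower, and *Itga4* passed (-0.44, adjusted p = 0.0433 by edgeR, range over all alternatives 0.0433 to 0.503). Depth limits *Itga2*, *Itga8*, *Itgae* and other subunits with few reads.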
